A study of Mus musculus with 8 samples.

Results

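The miR-10 and miR-196 families are microRNAs encoded inside the HOX gene clusters. Their members on the array were taken by name from the annotation of the non-control spots: mmu-miR-10a-5p, mmu-miR-10a-3p, mmu-miR-10b-5p, mmu-miR-10b-3p, mmu-miR-196a-5p and mmu-miR-196b-5p (the prefix, for mouse, is left out from here on), 6 of the 1881 mouse miRNAs that the arrays carry. They were measured in kidney RNA of 2 groups of male mice. The control group held 4 samples of strain C57BL/6J, which the titles call Mock; whether a mock treatment was given is not stated in the sources used here. The Akita group held 4 samples of strain C57BL/6-Ins2Akita/J, which carries the dominant Akita allele of Ins2, an insulin gene expressed mainly in pancreatic beta cells, where the mutant proinsulin misfolds and the animals become diabetic. The labels give an age of 36 without a unit for both groups, and no treatment of the Akita mice. Each sample was hybridised to 1 one-colour array from 100 ng of total RNA. The labels leave unsaid whether the samples are separate mice, so the spread behind the p-values may be technical.

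HOX genes encode homeodomain transcription factors that give cells their position along the body axis, and they lie in the clusters HoxA, HoxB, HoxC and HoxD. The miR-10 genes sit near the Hox4 paralogs and the miR-196 genes next to the Hox9 paralogs, and several HOX transcripts are known targets of miR-196 and miR-10. A miRNA hairpin gives a product from its 5' arm (5p) and one from its 3' arm (3p); usually one arm is loaded into the silencing complex and the other is mostly degraded, and the bases of the seed, positions 2 to 8, pair with target transcripts. Hox genes of the posterior groups are needed for the kidney to form, and HOX cluster miRNAs remain expressed in the adult organ.

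The mature sequences, from RefSeq for build GRCm38.p6, show why the family members have to be read in pairs. Capitals mark the seed.

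miR-10a-5p: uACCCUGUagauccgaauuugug

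miR-10b-5p: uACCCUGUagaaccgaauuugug

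miR-10a-3p: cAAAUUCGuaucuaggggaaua

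miR-10b-3p: cAGAUUCGauucuaggggaaua

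miR-196a-5p: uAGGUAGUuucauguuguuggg

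miR-196b-5p: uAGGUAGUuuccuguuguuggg

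The 5p arms of miR-10a and miR-10b share the seed ACCCUGU and differ by a single substitution, U12A, counted from the 5' end with the base of miR-10a first. The pair miR-196a-5p and miR-196b-5p shares the seed AGGUAGU and also differs at 1 base outside it, A12C, with the base of miR-196a first. Among the mature mouse miRNAs of the RefSeq table, each of these seeds was found in exactly 1 other miRNA, the paralog. The 3p arms of miR-10a and miR-10b differ at 3 bases, A3G, U9A and A10U, of which the first lies in the seed, so that their seeds, AAAUUCG and AGAUUCG, are different and were found in 0 other miRNAs of the table.

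Each of the mature miRNAs comes from 1 locus, with 1 exception. Mir10a is in the HoxB cluster, within the span of Hoxb3 and between Hoxb5 and Hoxb4, with the 5p arm at chr11:96317186-96317208 and the 3p arm at chr11:96317227-96317248 on the plus strand. Mir10b is in the HoxD cluster, within the spans of Hoxd4 and Hoxd3, with its arms at chr2:74726074-74726096 and chr2:74726114-74726135 on the plus strand. Mir196b lies between Hoxa9 and Hoxa10 in the HoxA cluster, with its 5p arm at chr6:52230129-52230150 on the minus strand. The exception is miR-196a-5p, which has 2 loci of identical mature sequence: Mir196a-1 between Hoxb13 and Hoxb9 (chr11:96265187-96265208, plus strand) and Mir196a-2 between Hoxc10 and Hoxc9 (chr15:102973365-102973386, plus strand). The array therefore cannot assign the signal of miR-196a-5p to HoxB or to HoxC. The array's own annotation names an earlier build, mm9, and none of its coordinates are given here.

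The hairpins of miR-10a and miR-10b show how both arms arise from 1 precursor. Capitals mark the 5p arm and then the 3p arm; the entries differ in how much flanking sequence they hold, 110 bases for Mir10a and 68 for Mir10b.

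Mir10a: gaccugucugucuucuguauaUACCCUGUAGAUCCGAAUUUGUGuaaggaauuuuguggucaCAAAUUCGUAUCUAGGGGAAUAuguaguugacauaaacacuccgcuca

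Mir10b: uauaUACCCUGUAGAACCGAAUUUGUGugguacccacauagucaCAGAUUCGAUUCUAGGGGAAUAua

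The array reads these miRNAs with short complementary probes. The longest probes of each paralog pair are shown, 5' to 3', with the bases that differ from the paralog's probe in capitals.

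miR-10a-5p probe: cacaaattcggAtctacaggg

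miR-10b-5p probe: cacaaattcggTtctacaggg

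miR-10a-3p probe: tattcccctagaTAcgaa

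miR-10b-3p probe: tattcccctagaATcgaa

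miR-196a-5p probe: cccaacaacaTgaaactaccta

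miR-196b-5p probe: cccaacaacaGgaaactacc

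The 5p probes of miR-10a and miR-10b, and those of miR-196a and miR-196b, differ from each other at 1 base, and how far a probe also binds the paralog was not tested. The 3p probes differ at 2 bases; the seed difference A3G lies outside the stretch they pair with, bases 5 to 22 for the longest.

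The 8 arrays lay on 1 slide, with the control samples in row 1 and the Akita samples in row 2, and an effect of the row and of the group cannot be told apart. Before scaling, the 75th percentile of the 451 probes well above background on all arrays was 506.7 ± 10.3 in control and 420.8 ± 35.2 in Akita (SD, n = 4 each), and it was lowest for Akita 4 at 368.8. The signal of the labelling spike-ins overlapped, from 1732 to 1872 on the control arrays and from 1705 to 1871 on the Akita arrays. Why the percentile was lower in Akita was not tested. Between 274 and 327 miRNAs were well above background per array, and 0 spots were saturated. Levels are given as the processed signal divided by this percentile and put back on the scale of the arrays' mean percentile, called scaled signal. The tubule miRNAs miR-192-5p, miR-194-5p, miR-204-5p, miR-30a-5p and miR-200b-3p were above background on all 8 arrays, as the kidney label asks, and none of the 5 was called between the groups. The pancreas miRNAs miR-375-3p, miR-216a-5p and miR-217-5p and the muscle miRNAs miR-133a-3p and miR-206-3p were above background on no array. The remaining muscle miRNA listed, miR-1a-3p, was above background on 6 of the 8 arrays. In whole kidneys, fewer cells of a type and less RNA per cell cannot be told apart.

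Of the 6 HOX cluster miRNAs, 5 were well above background on each of the 8 arrays and 1, miR-10b-3p, on none. The 5 measured members entered a limma fit over 285 miRNAs, each above background on every array of 1 or both groups, with Benjamini-Hochberg adjustment over all 285 and a call at an adjusted p under 0.05. Of the 5, 1 was called lower in Akita, the 3p arm miR-10a-3p, and 0 were called higher. Over all tested miRNAs 42 were called, 14.7%, with 6.32% lower and 8.42% higher, so that 1 of 5 is near the share of the whole array. The groups did not overlap for 1 of the 5 members, against 22.8% of all tested miRNAs. The median log2 fold change, Akita minus control, was -0.09 over the 5 members and 0.06 over all tested miRNAs; 3 of the 5 members and 118 of the 285 miRNAs were lower in mean. The count of 42 calls was 21, 18, 20, 25 and 21 without control 2, control 3, Akita 1, Akita 2 and Akita 3.

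**Figure D1:**
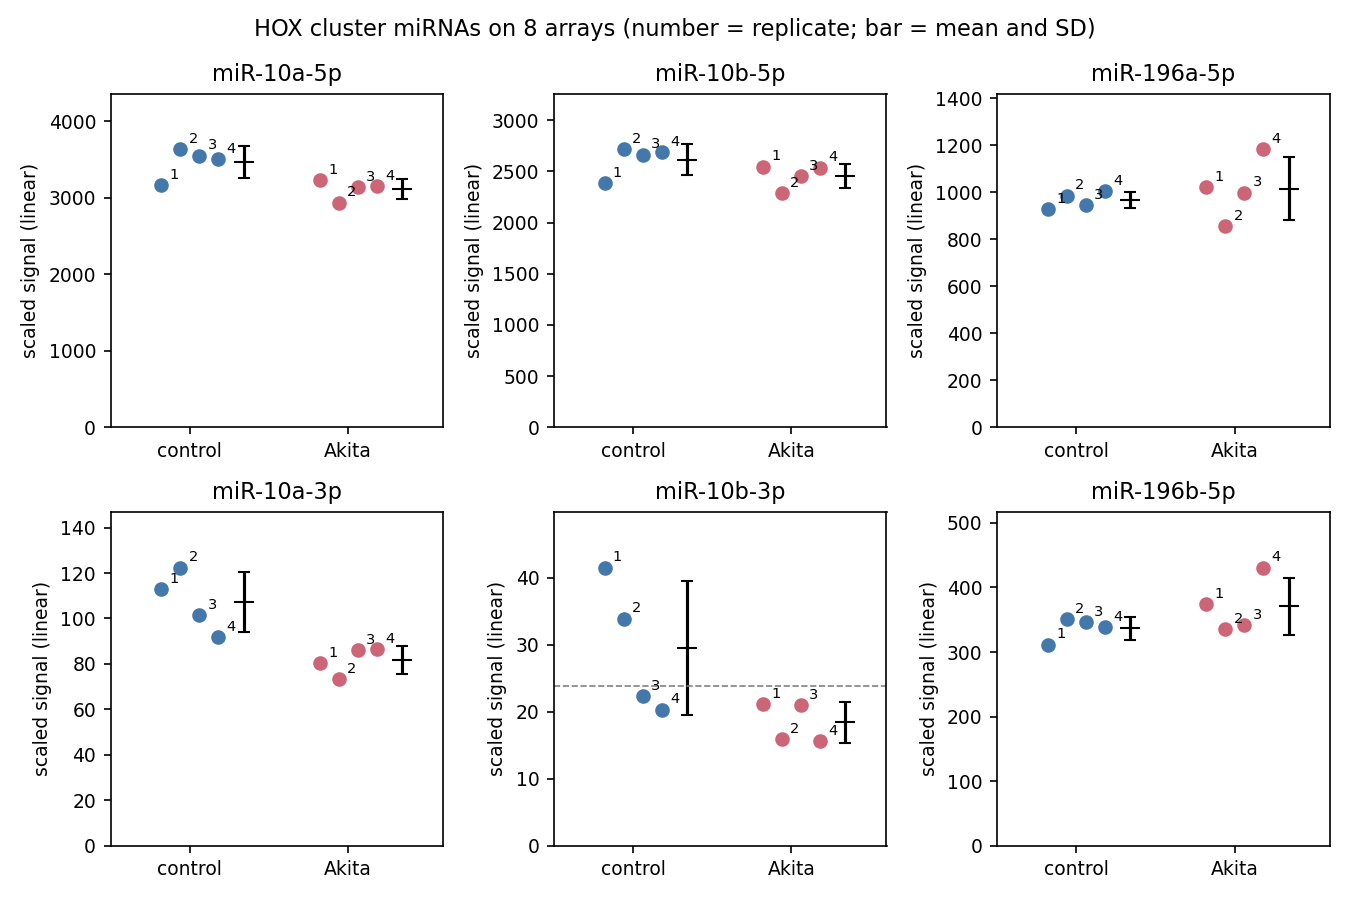
Scaled signal (linear axis from 0) of the 6 HOX cluster miRNAs on 8 arrays, 4 control (blue) and 4 Akita (red), each point 1 array numbered by its replicate, with the group mean and SD beside it. The Akita points of miR-10a-3p, from 73.2 to 86.4, lie below the control points, from 91.9 to 122.4; the groups overlap for the other measured members, and all 8 points of miR-10b-3p are below background, 6 of them under the floor of 23.8 (dashed).

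MiR-10a-5p, the product of the 5' arm of the HoxB hairpin, is the form of miR-10a usually found in the silencing complex. Its scaled signals were 3158, 3633, 3546 and 3500.0 in control 1 to 4 and 3229, 2934, 3138 and 3149.7 in Akita 1 to 4. Controls 2 to 4 were above every Akita sample, while control 1 lay below Akita 1, so that the groups overlapped. The mean log2 signal was 11.75 ± 0.09 in control and 11.60 ± 0.06 in Akita (SD, n = 4 each), a log2 fold change of -0.15 ± 0.07 SE with a 95% interval from -0.31 to 0.01 (limma, adjusted p = 0.16). The difference was not past the threshold, and the interval reaches down to a change of -19.3%. Both of its probes were lower in mean in Akita, with log2 ratios of the group means of -0.11 for the 20-base and -0.17 for the 21-base probe.

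The call for miR-10a-5p depended on the scaling between arrays. It was called lower without scaling (log2 fold change -0.42, adjusted p = 0.0059), when scaled to the labelling spike-ins (-0.39, adjusted p = 0.0043) and with quantile scaling (-0.18, adjusted p = 0.017), in the same limma fit. It moved the other way when the percentile was taken over all probes, to -0.06 (adjusted p = 0.87). The median of all tested miRNAs was -0.21 without scaling, -0.18 with the spike-ins, 0.02 with quantile scaling and 0.16 with that percentile. The decrease of miR-10a-5p lay below that median under each of these scalings. A scaling by 1 factor per array shifts all miRNAs above the floor by the same amount. Only the quantile scaling could therefore have changed the distance of miR-10a-5p from the median.

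MiR-10a-3p, the opposite arm of the same hairpin, fell in the Akita kidneys. Its scaled signals were 113.0, 122.4, 101.3 and 91.9 in control 1 to 4 and 80.4, 73.2, 86.0 and 86.4 in Akita 1 to 4. All 4 Akita values were below all 4 control values, with control 4 the nearest to the Akita group; 9.12% of all tested miRNAs were lower in Akita without overlap. The mean log2 signal was 6.74 ± 0.18 in control and 6.35 ± 0.11 in Akita (SD, n = 4 each), a log2 fold change of -0.39 ± 0.10 SE with a 95% interval from -0.62 to -0.16 (limma, adjusted p = 0.036), or 1.31-fold lower. Among the 18 miRNAs called lower, 13 fell by more. MiR-10a-3p is a dim miRNA on these arrays, and the floor of 23.8 lies well under each of its values.

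The call of miR-10a-3p rested on most of the single arrays. In fits without 1 array it was kept without control 4 or Akita 4. It was lost without control 1 (log2 fold change -0.37, adjusted p = 0.065), control 2 (-0.32, adjusted p = 0.087), control 3 (-0.45, adjusted p = 0.052), Akita 1 (-0.38, adjusted p = 0.075), Akita 2 (-0.36, adjusted p = 0.075) and Akita 3 (-0.42, adjusted p = 0.060). The direction was the same in each of these fits. Of the 14 other settings tried it was called under 7, among them no scaling, the spike-ins, median and quantile scaling and the deposited value table, and 1 setting turned its sign: with the background modelled by normexp, which adds an offset of 50 to every spot, the log2 fold change was 0.06 (adjusted p = 0.51).

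**Figure D2:**
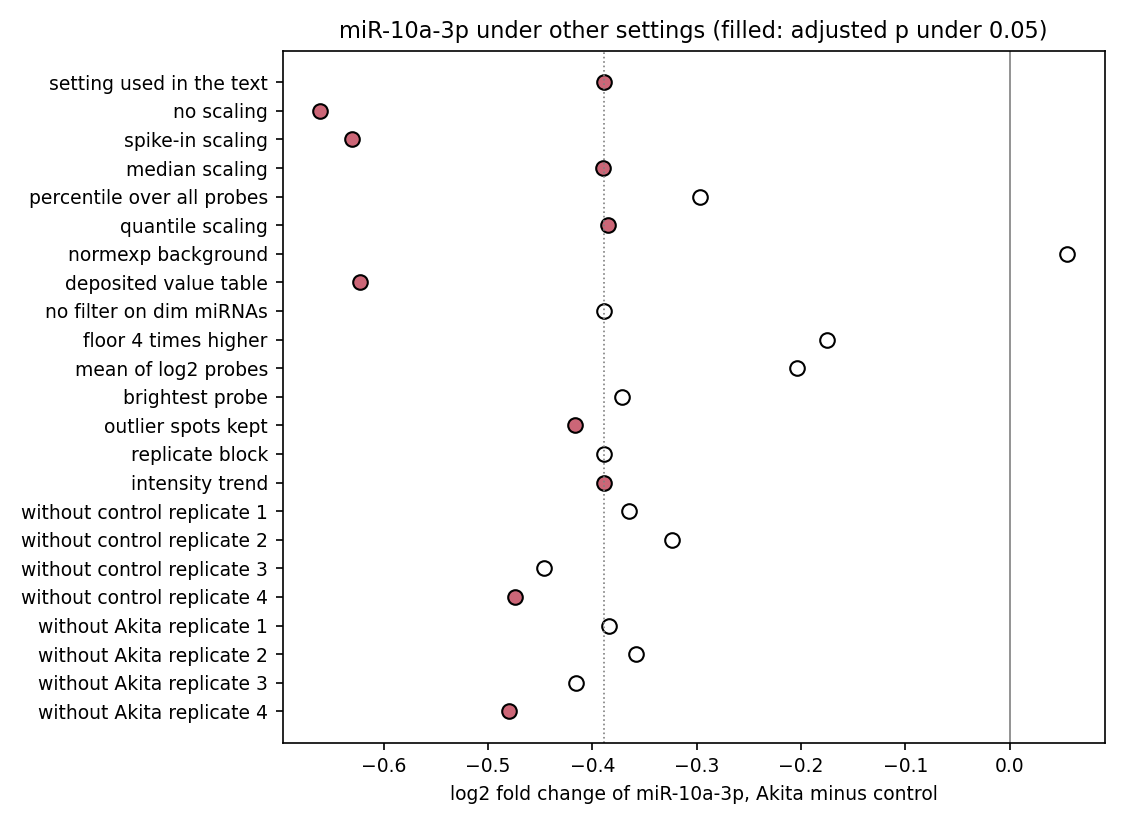
Log2 fold change of miR-10a-3p, Akita minus control (x axis), under the setting used in the text (dotted line, -0.39) and 22 others (y axis), each point 1 limma fit, filled where the adjusted p was under 0.05. Points run from -0.66 without scaling to 0.06 with normexp, the single point above 0, and 9 of the 22 are filled.

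The signal of miR-10a-3p came mainly from its longer probes. The array holds 4 probes for it, of 15 to 18 bases, which share their first bases and are shortened forms of the 18-base probe shown above, so that they are not independent readings. The 15-base probe was above background on no array. The 16-base probe was above background on 3 of 4 control arrays and on no Akita array, with 16 of 31 usable spots above background in control and 0 of 28 in Akita.

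The 17-base probe, above background on every array, read 39.8 ± 3.6 in control and 32.3 ± 2.9 in Akita (scaled signal, SD, n = 4 each), with no overlap between the groups, and a log2 ratio of the means of -0.30. The 18-base probe, also above background on every array, read 43.4 ± 6.5 and 33.4 ± 3.3, a log2 ratio of -0.38, with control 4 at 36.19 just under Akita 1 at 36.24. These longest probes gave 38.2% and 40.7% of the summed signal. All 4 probes, the 15-base one below background included, had a lower mean in Akita; taking the brightest probe alone gave a log2 fold change of -0.37 that missed the threshold (limma, adjusted p = 0.073). Spots of 1 probe on 1 array varied with a CV of 7.04% to 19.1% for these longest probes, against 2.08% to 4.81% for the probes of miR-10a-5p.

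**Figure D3:**
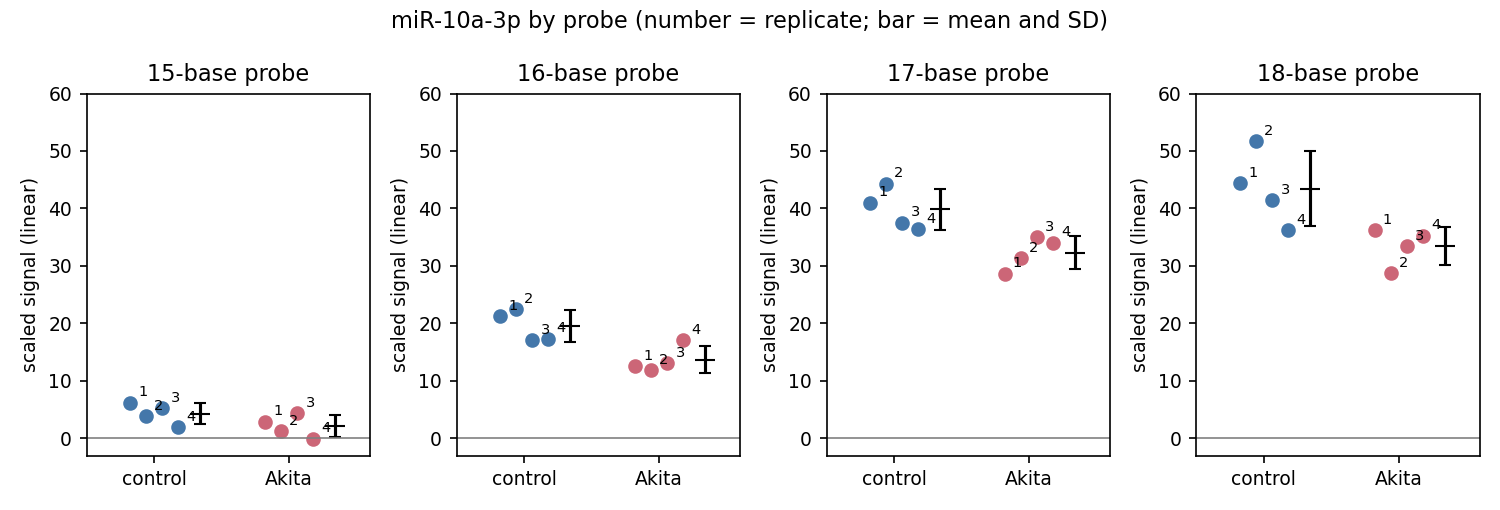
Scaled signal (linear axis) of the 4 probes of miR-10a-3p, by probe length, on the 4 control (blue) and 4 Akita (red) arrays, numbered by replicate, with group mean and SD. The 15-base probe lies near 0 on all arrays; the 17-base probe reads 36.4 or more in control and 35.1 or less in Akita.

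Other miRNAs moved with the groups in the same direction as miR-10a-3p. Of the 6 leukocyte miRNAs, 5 were called lower in Akita, with a median log2 fold change of -0.54 for the list, and their summed scaled signal ranged from 1075 to 1239 in control and from 736.5 to 876.6 in Akita. Those called were miR-142a-3p (-0.59), miR-142a-5p (-0.55), miR-155-5p (-0.61), miR-223-3p (-0.44) and miR-342-3p (-0.54). MiR-150-5p (-0.35) was not called (limma, adjusted p = 0.090), and none of the 6 was at background. Of the 3 erythrocyte miRNAs, miR-451a was tested and not called, and their summed signal ranged from 97.6 to 1308 in control and from 631.0 to 849.4 in Akita; miR-486a-5p was above background on no array. None of the 2 endothelial or 4 smooth muscle and mesenchymal miRNAs was called. Of the neuronal miRNAs, miR-9-5p stood at -0.27 on the log2 scale, Akita minus control (limma, adjusted p = 0.15) and miR-124-3p was above background on no array; the liver miRNA miR-122-5p was above background on 5 of 8 arrays and the muscle miRNA miR-1a-3p on 6, and neither was tested. The part of these cells, and of the dimmer Akita arrays, in the lower signal of miR-10a-3p was not tested.

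MiR-10b-5p, the 5p product of the HoxD hairpin and the paralog that shares the seed of miR-10a-5p, is known for promoting cell migration in tumours. It had scaled signals of 2389, 2718, 2665 and 2691 in control 1 to 4 and 2547, 2290.1, 2451 and 2538 in Akita 1 to 4. Controls 2 to 4 were close together and above the Akita samples, and control 1 lay within the Akita range. The mean log2 signal was 11.35 ± 0.09 in control and 11.26 ± 0.07 in Akita (SD, n = 4 each), a log2 fold change of -0.09 ± 0.07 SE with a 95% interval from -0.25 to 0.07 (limma, adjusted p = 0.39). It was called lower without scaling (-0.36, adjusted p = 0.0099) and with the spike-ins (-0.33, adjusted p = 0.0061), and its log2 fold change was 0.0025 when the percentile was taken over all probes. It was -0.17 without Akita 4 and -0.14 without control 1, neither of them called.

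MiR-10b-3p, the other arm of that hairpin, gave no measurable level. Its scaled signals were 41.5, 33.9, 22.3 and 20.3 in control 1 to 4 and 21.2, 15.9, 21.0 and 15.6 in Akita 1 to 4, each not well above background. Controls 1 and 2 had the highest values, and the other 6 lay under the floor. Feature Extraction's own total signal was at its minimum of 0.1 on those 6 arrays and 3.01 and 1.53 on control 1 and control 2. No fold change is given for it.

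MiR-196a-5p, from HoxB and HoxC, is known for directing cleavage of Hoxb8 transcripts in the embryo. It had scaled signals of 928.8, 985.9, 946.5 and 1005 in control 1 to 4 and 1023, 855.3, 998.6 and 1184 in Akita 1 to 4. The Akita samples enclosed the control samples on both sides, with Akita 2 the lowest and Akita 4 the highest of the 8. The mean log2 signal was 9.92 ± 0.05 in control and 9.98 ± 0.19 in Akita (SD, n = 4 each), a log2 fold change of 0.06 ± 0.10 SE with a 95% interval from -0.16 to 0.28 (limma, adjusted p = 0.68). Its sign was not settled: the value was -0.21 without scaling, -0.18 with the spike-ins, -0.01 with quantile scaling and -0.08 without Akita 4. It was 0.15 with the percentile over all probes, 0.12 without Akita 2, 0.04 without control 1 and 0.02 without control 3. None of these values was called.

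MiR-196b-5p, from HoxA, shares the seed of miR-196a-5p and is also made by blood progenitor cells, where Hoxa9 is active. Its scaled signals were 311.5, 351.1, 346.6 and 338.7 in control 1 to 4 and 374.6, 335.1, 341.9 and 430.7 in Akita 1 to 4. Akita 1 and Akita 4 were above all controls and Akita 2 and Akita 3 within the control range. The mean log2 signal was 8.39 ± 0.08 in control and 8.53 ± 0.17 in Akita (SD, n = 4 each), a log2 fold change of 0.13 ± 0.09 SE with a 95% interval from -0.08 to 0.34 (limma, adjusted p = 0.33). The value was -0.14 without scaling, -0.11 with the spike-ins, 0.22 with the percentile over all probes and -0.0045 without Akita 4, so that its direction also depended on the scaling and on that array. The 4 probes of miR-196a-5p had log2 ratios of the group means between 0.06 and 0.13, and the probes of miR-196b-5p had 0.17 and 0.12.

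**Figure D4:**
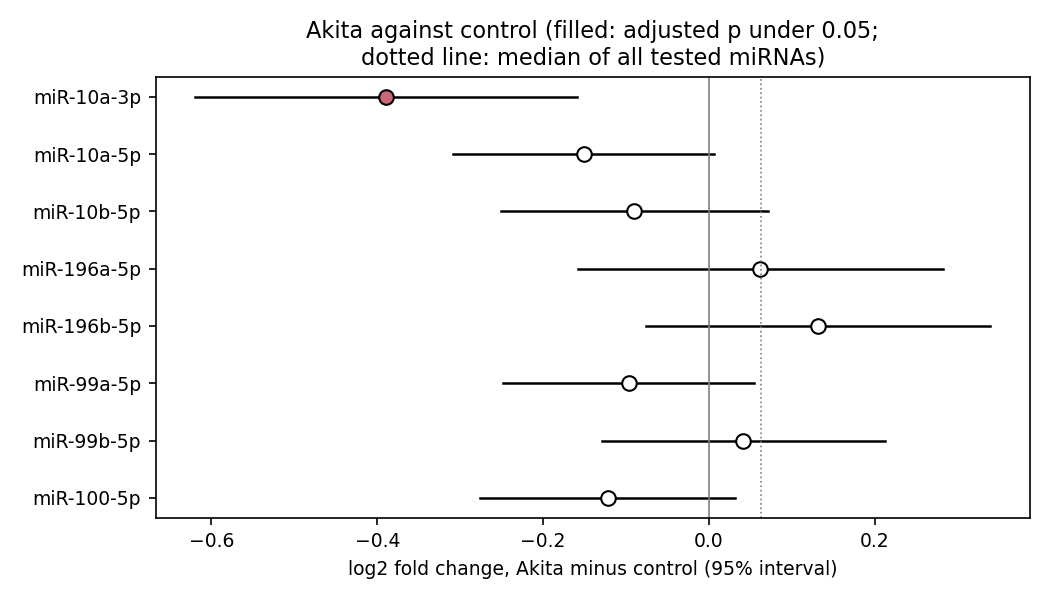
Log2 fold change, Akita minus control (x axis), of the 5 measured HOX cluster miRNAs and of 3 miR-99 and miR-100 relatives, with 95% intervals from limma over 8 arrays; a filled point has an adjusted p under 0.05, and the dotted line is the median of all tested miRNAs, 0.06. The interval of miR-10a-3p, from -0.62 to -0.16, is the single one that does not include 0.

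Ratios of members on the same array remove the scaling factor of that array and so bear on whether members changed unequally. A ratio of 2 miRNAs also depends on how well their probes bind, so its level is no ratio of abundances, and the difference of the log2 ratio between groups is the quantity compared. Of 6 pairs, 4 had both miRNAs above background on all arrays and were tested with an exact two-sided permutation test over the 35 splits of 8 arrays into 4 and 4, whose smallest possible p is 0.0286, with adjustment over the 4 pairs. The pairs of miR-10b-3p with miR-10b-5p and with miR-10a-3p were not tested, since miR-10b-3p was below background.

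The arms of miR-10a were compared first. The log2 ratio of miR-10a-3p over miR-10a-5p was -4.80, -4.89, -5.13 and -5.25 in control 1 to 4 and -5.33, -5.32, -5.19 and -5.19 in Akita 1 to 4. The control samples varied more (SD 0.21) than the Akita samples (SD 0.08), and control 4 lay within the Akita range. The difference, Akita minus control, was -0.24 (exact permutation p = 0.11, adjusted p = 0.15). It was -0.44 with the deposited value table and -0.06 with the mean of log2 probes, so that its size was not settled. It was -0.02 with the floor 4 times higher and 0.22 with normexp. That floor lies above every Akita value of miR-10a-3p. Normexp adds an offset of 50 to every spot, where the 18-base probe of this arm read 43.4 in control. The direction of the ratio was thus not settled either, and the cause of its turn with normexp was not tested. The test of the ratio missed the threshold. The call of the 3p arm beside the missed threshold of the 5p arm therefore does not show that the arms changed by different amounts.

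The paralogs gave a small and tight difference. The log2 ratio of miR-10a-5p over miR-10b-5p was 0.40, 0.42, 0.41 and 0.38 in control 1 to 4 and 0.34, 0.36, 0.36 and 0.31 in Akita 1 to 4. All 4 Akita ratios were below all 4 control ratios, and their means were 0.40 ± 0.02 and 0.34 ± 0.02 (SD, n = 4 each). The difference of -0.06 had an exact permutation p = 0.0286, the smallest this design can give, and an adjusted p = 0.11 that missed the threshold. It was -0.11 with quantile scaling and between -0.07 and -0.05 without 1 array; scalings by 1 factor per array cannot change a ratio within an array. It is smaller than the range of either miRNA within either group. Both miRNAs had their lowest control signal on control 1 and their lowest Akita signal on Akita 2.

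Within the miR-196 family the ratio of miR-196a-5p over miR-196b-5p had means of 1.52 ± 0.06 in control and 1.45 ± 0.08 in Akita (SD, n = 4 each), with overlap and a difference of -0.07 (exact permutation p = 0.20, adjusted p = 0.20). That difference was -0.04 without Akita 2 and -0.11 with quantile scaling. Between the families, the ratio of miR-10a-5p over miR-196a-5p was 1.77, 1.88, 1.91 and 1.80 in control 1 to 4 and 1.66, 1.78, 1.65 and 1.41 in Akita 1 to 4. Akita 2 overlapped the control range and Akita 4 was the lowest. The difference was -0.21 (exact permutation p = 0.0571, adjusted p = 0.11), and it was -0.14 without Akita 4. None of the 4 ratios passed the threshold.

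**Figure D5:**
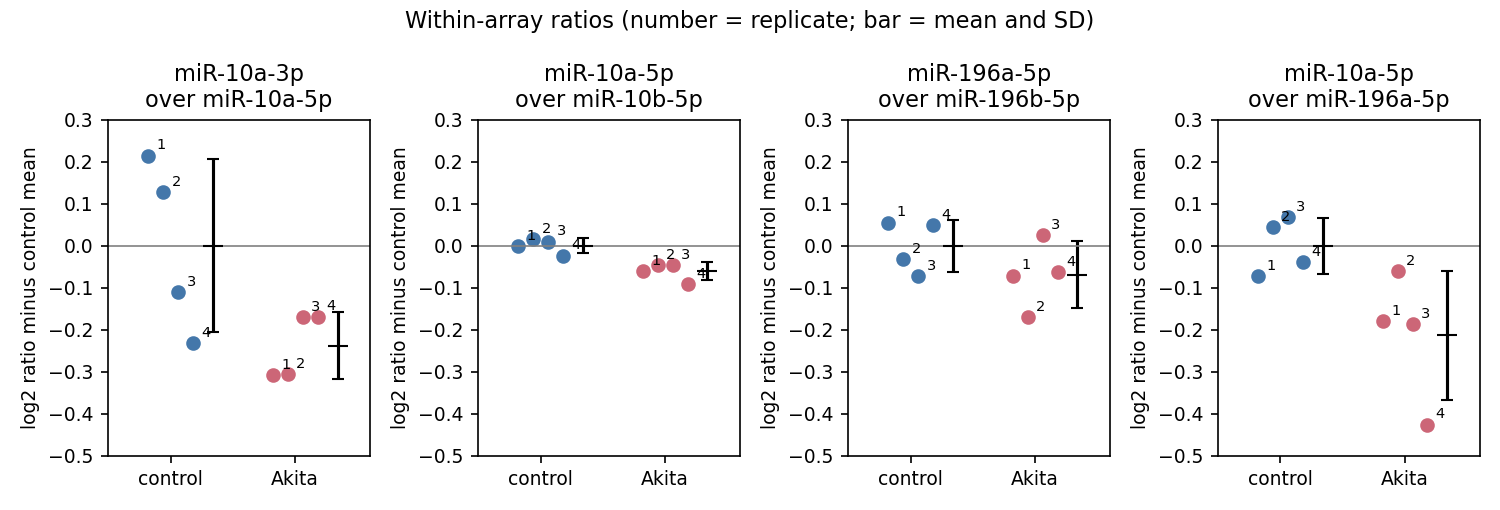
Within-array log2 ratios of 4 pairs of HOX cluster miRNAs, each minus its control mean (y axis), on 4 control (blue) and 4 Akita (red) arrays numbered by replicate, with group mean and SD. The groups are apart without overlap for miR-10a-5p over miR-10b-5p, where the difference is -0.06, and overlap for the other pairs.

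The members also differed in their spread over the 8 arrays. Over the 8 arrays the SD of the log2 signal was 0.088 for miR-10b-5p and 0.107 for miR-10a-5p, and 8.77% and 17.5% of all tested miRNAs had a smaller one. It was 0.134 for miR-196a-5p, 0.139 for miR-196b-5p and 0.250 for miR-10a-3p, for which 75.1% of tested miRNAs had a smaller one. These SDs pool both groups, so that a difference between the groups counts in them. By this measure the 5p arms of miR-10 were among the less variable miRNAs, and the dim 3p arm among the more variable ones. Within the groups the SD of miR-10a-3p was 0.18 in control and 0.11 in Akita.

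The miRNAs with the most similar pattern over the 8 arrays were found by the root mean square difference of centred log2 signals, among 256 other miRNAs above background on all arrays. For miR-10a-5p these were miR-10b-5p at 0.035, miR-872-5p at 0.048 and miR-20a-5p at 0.048, where the median over all 256 was 0.199. For miR-10b-5p they were let-7c-5p at 0.028, let-7b-5p at 0.032 and miR-10a-5p at 0.035. The paralogs were thus among each other's nearest miRNAs, and their probes differ by 1 base. MiR-196a-5p was nearest to miR-103-3p at 0.035, miR-532-5p at 0.051 and let-7d-5p at 0.053, and miR-196b-5p to miR-15b-5p at 0.037 and to miR-126a-3p and miR-93-5p at 0.038, so neither miR-196 had its paralog among its 3 nearest. The nearest to miR-10a-3p were miR-181b-5p at 0.104, miR-17-5p at 0.105 and miR-181c-5p at 0.115. Its distances were larger than those of the other members, but so was its median over all 256, 0.287 against 0.147 to 0.199. Of its nearest, miR-181b-5p and miR-181c-5p were called lower in Akita as well (log2 fold changes -0.35 and -0.50). The distance includes the difference between the groups, so the nearest of a miRNA lower in Akita tend to be lower too. These points share the arrays and their scaling, and the values are a description.

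The remaining products of the HOX clusters on the array were not measurable. MiR-196a-1-3p, miR-196a-2-3p and miR-196b-3p, the opposite arms of the miR-196 hairpins, and both arms of miR-615, whose gene lies within Hoxc5, were above background on 0 of 8 arrays, 5 of 5. Their highest scaled signal on any array was 20.8, that of miR-615-3p. For the miR-196 family and for miR-10b the array therefore read 1 arm, and miR-10a was the single HOX cluster hairpin with both arms above background on all arrays.

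The relatives of miR-10 outside the HOX clusters, miR-99a, miR-99b and miR-100, carry a shifted version of the same core. Capitals mark the run of bases shared with miR-10a-5p.

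miR-99a-5p: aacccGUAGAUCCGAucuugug

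miR-99b-5p: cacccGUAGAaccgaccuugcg

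miR-100-5p: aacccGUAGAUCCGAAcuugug

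The shared run is 10 bases in miR-99a-5p, 5 in miR-99b-5p and 11 in miR-100-5p, and it begins at base 6 in the relatives and at base 7 in miR-10a-5p. Their seed, ACCCGUA, differs from that of miR-10. The run of miR-99b-5p stops just before base 12 of miR-10a-5p, where U12A sets miR-10b-5p apart, and is longer when counted against miR-10b-5p. Of the 6 arms of these relatives, the 3 5p arms were tested and 0 were called. Their log2 fold changes were -0.10 for miR-99a-5p (95% interval -0.25 to 0.05, adjusted p = 0.33), 0.04 for miR-99b-5p (-0.13 to 0.21, adjusted p = 0.72) and -0.12 for miR-100-5p (-0.28 to 0.03, adjusted p = 0.24), all from the same limma fit. The 3p arms were above background on no array.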

How the data were processed

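Kidney RNA of 4 control and 4 Akita samples carried the dye Cy3 on one-colour Agilent miRNA arrays, 1 array per sample, per the labels' protocols. The deposited scanner files give linear intensities per spot, extracted with Agilent Feature Extraction 12.0.3.1, per the submitters' processing notes; background was already subtracted and no scaling between arrays applied, per the file headers. Outlier, saturation and above-background flags were taken from the deposited files unchanged. The deposited value table holds a linear ratio: set against the scanner files, each value equals the total signal of a miRNA over an array factor and over a factor of that miRNA. Whether the factor of a miRNA is its median was not tested. How the authors chose the array factors was not stated in the sources used here. Its column medians were 0.951, 0.950, 0.970 and 0.700 in control 1 to 4 and 1.03, 1.11, 1.13 and 1.22 in Akita 1 to 4; it served as an alternative.

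From these files, outlier spots were left out (2.03% to 3.02% per array), spots were averaged per probe, and arrays were scaled by the 75th percentile of 451 probes that were above background on every array, with 0.5 or more of their spots so marked. A miRNA's probes, up to 4, were added up, so that a brighter probe weighs more. The lowest sum of a miRNA measured on every array, 23.8 (4.57 on the log2 scale), served as the floor for dimmer sums, and log2 was taken. The comparison used R 4.3.3 and limma 3.58.1 (two-sided lmFit and eBayes, with 9.16 degrees of freedom of which 6 are residual), which was tested on simulated data first. The replicate numbers of the titles were not used as a block. Precision is limited by the number of arrays, and a sum at the floor understates a fold. The members, the lists and the rule for the named miRNAs (each member, the listed relatives, and for each measured member the 3 miRNAs of most similar pattern) were chosen with earlier results of these data known. Alternatives were other scalings, background, floor, filter, probe summary and model settings and leaving out each array. Sequences and neighbouring genes are from RefSeq tables of GRCm38.p6.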

Additional observations from a re-analysis of the deposited data

Results flagged for a closer look

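MiR-10b-5p in control 1 stood apart from the other control samples: its log2 scaled signal was 11.22 where the other 3 lay between 11.38 and 11.41, so that the gap was 0.845 of the group's whole range, above Dixon's critical value for 4 samples. This was 1 of 18 sets of values checked, and chance picks about 1 in 20. Control 1 also had the lowest scaled signal of its group for miR-10a-5p, miR-196a-5p and miR-196b-5p. Without control 1, the log2 fold change of miR-10b-5p was -0.14 and was not called (limma, adjusted p = 0.23).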

How the results depend on the processing

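The numbers of calls moved with the settings, and those of the HOX cluster miRNAs with them. Against 42 calls in all and 1 among the members, there were 109 (5 higher, 104 lower) and 3 without scaling, 114 (7 and 107) and 3 with the spike-ins, 14 (10 and 4) and 0 when all probes set the percentile, 89 (81 and 8) and 0 with normexp, 6 and 0 with no filter on dim miRNAs, and 9 and 0 with the floor 4 times higher. Among the members there were 2 with quantile scaling and 0 with the mean of log2 probes or the brightest probe. Leaving out 1 array gave 18 to 37 calls in all and 0 to 1 among the members. The median of all tested miRNAs was -0.21, -0.18, 0.16 and 0.13 without scaling, with the spike-ins, with the percentile over all probes and with normexp.

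For miR-10a-3p, the adjusted p ranged from 0.0016 to 0.51 over 22 alternatives. The log2 fold change was -0.30 with the percentile over all probes (adjusted p = 0.29), -0.39 with no filter (0.38), -0.18 with the floor 4 times higher (0.38), -0.20 with the mean of log2 probes (0.092), -0.37 with the brightest probe (0.073), 0.055 with normexp, and -0.48 to -0.32 without 1 array. With no filter more miRNAs are tested. The higher floor lies above every Akita value of miR-10a-3p, 73.2 to 86.4, and above control 4 at 91.9, and so replaces these values. The cause of the losses was not tested. For miR-10a-5p the calls were at -0.42 without scaling, -0.39 with the spike-ins and -0.18 with quantile scaling, and miR-10b-5p was called at -0.36 unscaled and -0.33 with the spike-ins and stood at 0.0025 with the percentile over all probes. MiR-196a-5p turned to -0.21 without scaling, -0.18 with the spike-ins, -0.014 with quantile scaling and -0.077 without Akita 4, and ranged from -0.08 to 0.12 without 1 array. MiR-196b-5p turned to -0.14, -0.11 and, without Akita 4, -0.0045, and ranged from there to 0.17 without 1 array. The ratio of miR-10a-3p over miR-10a-5p turned to 0.22 with normexp; the other 3 ratios kept their direction in the 8 fits without 1 array and with quantile scaling, normexp, other probe summaries, outlier spots kept and the value table, while scaling by 1 factor per array leaves a ratio the same by construction. The cause of these turns was not tested.

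With the replicate number as a block, there were 25 calls in all and 0 among the members, and miR-10a-3p stood at -0.39 (adjusted p = 0.093). The numbers are not said to pair samples: the deviations of same-numbered samples correlated at 0.096, -0.30, 0.34 and -0.35. No same-numbered control and Akita sample were each other's best match.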
